A study of Mus musculus with 4 samples.

Results

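The levels of 39 genes of homologous recombination, the Fanconi anaemia pathway and the damage kinases were compared between lung tissue of saline-treated mice and of mice treated with cmLumiOpto/PARPi. These genes were chosen because they are known to bear on the response of cells to olaparib, an inhibitor of the enzyme PARP, and not by a threshold on a measured value, although earlier results of these data were known when they were listed. All 39 were found by gene symbol among the 56748 genes of the deposited count table, and all 39 had enough counts to be among the 15167 genes tested.

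Homologous recombination repairs a break across both DNA strands by copying the intact sister chromatid. The broken ends are first resected to single strands, BRCA1 and BRCA2 with their partners prepare them for pairing with the sister, and a set of paralogous proteins and the RAD54 proteins help strands to invade and exchange. Joined chromosomes are then separated by the BLM complex or cut by nucleases. The Fanconi proteins detect DNA crosslinks at stalled forks, and a core complex attaches ubiquitin to FANCD2 and FANCI, which hands the lesion to nucleases and to recombination. ATM and ATR are the kinases that signal breaks and stalled forks, through CHEK2 and CHEK1. PARP inhibitors are used in breast cancer because cells without BRCA1 or BRCA2 survive them poorly.

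Bulk RNA sequencing covered 4 libraries, 2 of the saline group and 2 of the cmLumiOpto/PARPi group. All mice were BALB/cJ females injected through the tail vein at 7 weeks of age with 4T1-FLuc cells, a mouse triple-negative breast cancer line that expresses firefly luciferase, and lungs were taken after 3 weeks of treatment. The cmLumiOpto/PARPi group received the cmLumiOpto genes in an adeno-associated virus within exosomes that carry an antibody to CD276, the luciferase substrate ViviRen, and olaparib at 50 mg/kg (named cmLumi-Olap in the labels). The control group received saline by the sample titles and PBS by another label. The labels speak of tumour cells where the methods describe lung tissue with metastases, and all tumours came from 1 cell line. No library of either agent alone was analysed here, so the vector, its substrate and olaparib cannot be told apart. The labels number the libraries without saying that each came from its own mouse, so p-values measure the spread between these libraries only.

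The gene counts summed to between 15263375 and 16755228 per library. A gene's level is given as CPM, its counts scaled to a common library size with TMM factors, and 3 counts, taken as the smallest detected level, corresponded to between 0.179 and 0.197 CPM, a floor that covers counting error only. Every one of the 39 genes was above it in every library, with 21 to 1000 counts and 1.43 to 63.0 CPM. All libraries held the epithelial keratins Krt8 (998 to 1640 CPM) and Krt18 (740 to 1260 CPM), which tumour and normal lung epithelium both make, and the surfactant gene Sftpc of alveolar cells (176 to 6150 CPM), while the keratins Krt5 and Krt6a were at 0 in 1 or more libraries. In bulk tissue, fewer cells of a type and less RNA per cell cannot be told apart.

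Promoters are shown for Brca2, Atr and Fancb, which had an unadjusted p under 0.05 between the groups (Rad50 had no window in the table used), and for Brca1, which acts upstream of Brca2. Each is the RefSeq window from 250 bases before to 50 bases after the annotated start, 300 bases in all, printed 5′ to 3′ on the strand of the gene, on GRCm38.p6. Capitals mark every match, on either strand, to the 6 promoter elements searched: E2F (TTTCCCGC, TTTGGCGC, TTTCGCGC or TTTGCCGC), CHR (TTTGAA), the CCAAT box (CCAAT), NRF1 (GCGCATGC), ETS (CCGGAAGT) and the GC box (GGGCGG). The windows lie at chr5:150522371-150522670 on the plus strand for Brca2, chr11:101551906-101552205 on the minus strand for Brca1, chr9:95857347-95857646 on the plus strand for Atr and chrX:164980342-164980641 on the plus strand for Fancb.
Brca2: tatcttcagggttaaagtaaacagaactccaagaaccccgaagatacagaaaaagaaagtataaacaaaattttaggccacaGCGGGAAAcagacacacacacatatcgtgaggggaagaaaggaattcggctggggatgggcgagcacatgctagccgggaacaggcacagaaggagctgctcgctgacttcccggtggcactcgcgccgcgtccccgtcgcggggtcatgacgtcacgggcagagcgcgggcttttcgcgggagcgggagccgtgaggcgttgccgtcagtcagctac
Brca1: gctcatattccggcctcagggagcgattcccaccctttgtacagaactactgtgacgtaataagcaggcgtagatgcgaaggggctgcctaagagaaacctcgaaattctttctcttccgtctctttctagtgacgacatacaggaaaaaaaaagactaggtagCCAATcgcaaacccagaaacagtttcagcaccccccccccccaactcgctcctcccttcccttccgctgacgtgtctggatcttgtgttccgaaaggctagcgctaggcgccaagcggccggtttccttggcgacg
Atr: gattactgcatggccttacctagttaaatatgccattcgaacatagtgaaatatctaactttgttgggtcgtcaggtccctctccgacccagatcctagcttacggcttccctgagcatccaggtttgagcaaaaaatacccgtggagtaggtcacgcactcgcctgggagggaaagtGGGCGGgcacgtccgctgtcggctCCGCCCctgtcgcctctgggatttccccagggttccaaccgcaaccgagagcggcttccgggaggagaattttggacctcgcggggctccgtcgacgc
Fancb: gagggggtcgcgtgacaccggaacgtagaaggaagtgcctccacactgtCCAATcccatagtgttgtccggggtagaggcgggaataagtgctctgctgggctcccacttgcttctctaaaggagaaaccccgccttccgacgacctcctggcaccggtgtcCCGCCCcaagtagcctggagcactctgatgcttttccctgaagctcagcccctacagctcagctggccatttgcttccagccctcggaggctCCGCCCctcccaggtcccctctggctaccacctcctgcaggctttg

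The Brca2 window held an E2F element, the site of the factors that turn on replication genes at the start of S phase, beginning 168 bases before the start of transcription. The Brca1 window held a CCAAT box 86 bases before it. The Fancb window held a CCAAT box 201 bases before the start and GC boxes 88 bases before and 4 bases after it, and the Atr window held GC boxes 72 and 48 bases before it. RefSeq windows were found for 29 of the 39 genes, 4 of them with 2 windows, giving 33 windows. The RefSeq start lay 65533 bases from the gene start in GENCODE M21 for Fancc and 2092 bases for Slx4. For the 2 windows of Rad54l it lay at 0 and 1 base, and for those of Rad51b at 0 and 69 bases. Elements in the bases that such windows share are counted in both. An E2F element was in 7 of these 33 windows (21.2%) and in 2.26% of the 32851 windows of all genes. The CCAAT box was in 60.6% of the 33 windows and 37.4% of all windows, and the GC box in 60.6% and 35.7%. NRF1 was in 9.09% and 2.71%, ETS in 9.09% and 3.89%, and CHR in 9.09% and 17.9%. Among the 33 windows, 2 pairs of different elements overlapped. The genes with an E2F element lay on both sides of 0: the log2 fold change, cmLumiOpto/PARPi minus saline, was -0.83 for Brca2 and -0.32 for Bard1, and 0.11 for Rmi1, 0.16 for Chek2, 0.20 for Rad51c and 0.48 for Fancg. A match to these letters is a description of the sequence and not a bound site.

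No gene of the 39 passed an adjusted p of 0.05 in edgeR's quasi-likelihood test, nor did any of the 15167 genes tested (0% called in either direction). The smallest adjusted p among the 39 was 0.142, for Brca2, and 0.138 among all genes. At an unadjusted p under 0.05, Fancb was higher after cmLumiOpto/PARPi, 1 of 39 (2.56%, against 9.21% of all genes), and Brca2, Rad50 and Atr were lower, 3 of 39 (7.69%, against 12.0% of all genes). With upper-quartile scaling those counts were 3 higher and 1 lower, beside 13.8% and 7.82% of all genes. Without saline 2 they were 0 higher and 1 lower, leaving Brca2 alone, beside 4.22% and 6.46% of all genes. Without cmLumiOpto/PARPi 1 they were 0 higher and 2 lower, Brca2 and Atm, beside 4.12% and 7.67%. Without saline 1 they were 3 higher and 2 lower, beside 9.20% and 10.1%, and without cmLumiOpto/PARPi 2 they were 2 higher and 4 lower, beside 9.82% and 11.8%. In 12 genes the treated libraries were both above the saline pair (30.8%, against 27.4% of all genes) and in 11 both lay below (28.2%, against 27.8%). With 1 library left in a group, libraries separate more often by construction. Without saline 1 the first count was 19 (48.7%, against 41.2% of all genes), and without saline 2 the second was 17 (43.6%, against 36.6%). Without cmLumiOpto/PARPi 2 the first share was below that of all genes (33.3%, against 42.2%).

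By sign alone, 20 of the 39 genes were higher and 19 lower (52.0% and 48.0% of all genes), and their median log2 fold change was 0.05, beside 0.02 over all genes. Upper-quartile scaling moved the median over all genes to 0.13 and that of the 39 to 0.15, with 27 higher and 12 lower (60.7% and 39.3% of all genes). The genes spread between -0.83 for Brca2 and 1.14 for Rmi2. Functional groups differed in the side on which their members lay: the 5 BRCA mediators and the 4 resection genes were all lower, and 7 of 8 Fanconi core genes, 4 of 5 recombination paralogues (Rad51b, Rad51c, Rad51d, Xrcc2 and Xrcc3) and all 3 annealing and strand exchange genes were higher. Several genes in these counts were near 0, among them Palb2 (-0.03), Nbn (-0.04), Exo1 (-0.05), and Fance and Fancl (both 0.05). No test was made of a group, and the functional groups differed in gene length, which moved with the fold change across all genes.

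**Figure D1:**
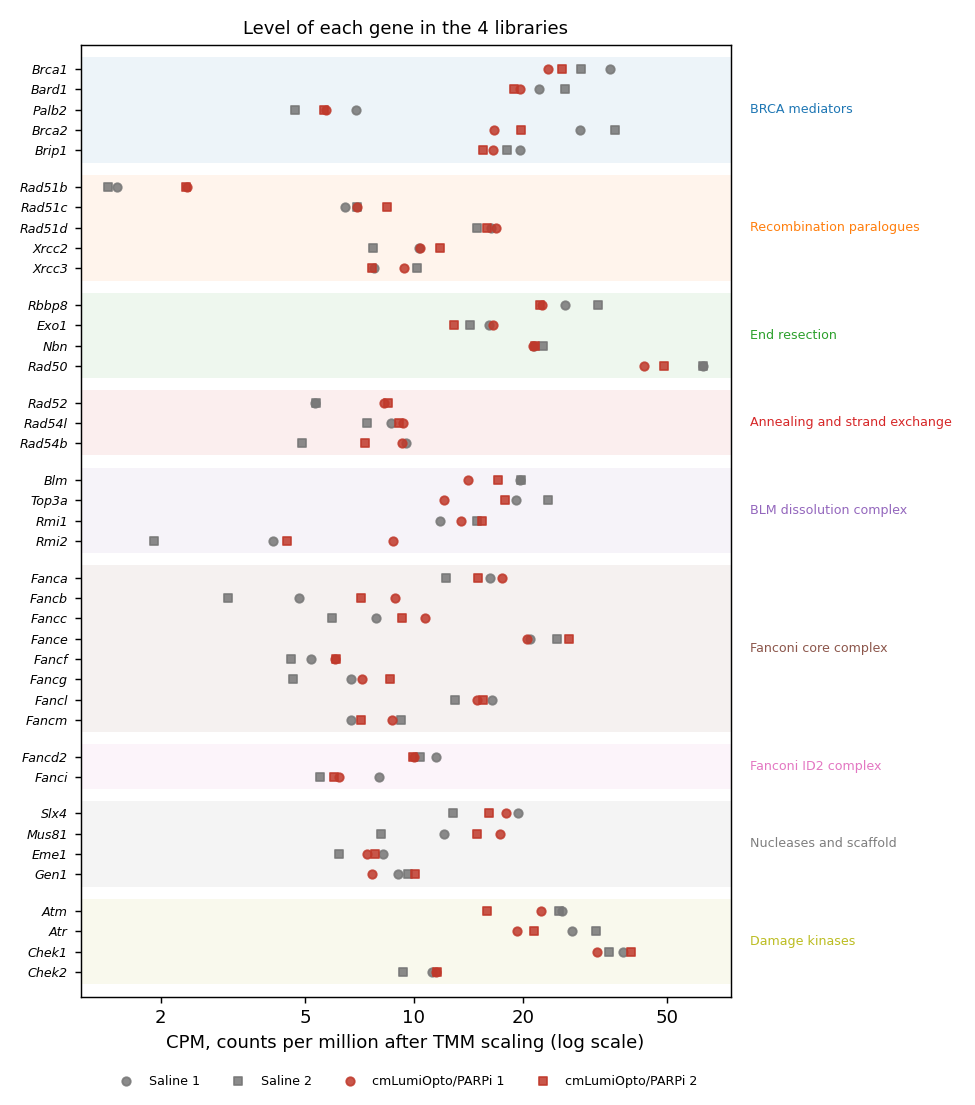
Level of each of the 39 genes in CPM (log scale) in the 4 libraries, ordered by functional group, with saline in grey and cmLumiOpto/PARPi in red, and circles for library 1 and squares for library 2 of each group. Brca2, Rad50 and Atr show both red points below both grey points, and Fancb shows both above, while Chek1 and Palb2 show the groups overlapping.

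Per unit of gene length the 39 genes spanned a wide range, given here as RPKM, CPM per kilobase of exon, in the saline libraries. Rad50, the coiled-coil ATPase of the end-tethering MRN complex, was highest at 11.7 ± 0.0331 RPKM (SD, n = 2), followed by its partner Nbn at 8.73 ± 0.403 (SD, n = 2), the fork-checkpoint kinase gene Chek1 at 7.81 ± 0.498 (SD, n = 2) and Fance at 7.17 ± 0.855 (SD, n = 2). These last 2 differed by less than the SD of Fance. Lowest were Rad51b at 0.391 ± 0.0139 RPKM (SD, n = 2), Rmi2 at 0.666 ± 0.341, Fancm at 0.762 ± 0.169 and Palb2 at 0.790 ± 0.212 (SD, n = 2 each), of which Rmi2, Fancm and Palb2 lay within the SDs of each other. The best-known susceptibility genes lay between, Brca1 at 3.73 ± 0.474 RPKM and Brca2 at 2.37 ± 0.383 (SD, n = 2 each). The damage kinase genes Atm and Atr stood at 2.46 ± 0.0298 and 1.25 ± 0.134 RPKM (SD, n = 2 each).

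The BRCA mediators were lower after cmLumiOpto/PARPi in 5 of 5 genes, with a median log2 fold change of -0.32. The groups did not overlap in 4 of them, beside 27.8% of all genes that were lower in this way. Brca2, which binds resected single strands (ENSMUSG00000041147, chromosome 5 from 150522630 to 150570329, plus strand), had 28.7 and 36.0 CPM in the saline libraries and 16.6 and 19.7 CPM after cmLumiOpto/PARPi. Both treated libraries lay below both saline libraries. The log2 fold change of Brca2 was -0.83 (standard error 0.20, 95% interval -1.33 to -0.33, unadjusted p = 0.00679, adjusted p = 0.142 with edgeR). It was negative, with an unadjusted p under 0.05, under all 13 alternatives, and its adjusted p ranged from 0.0081 to 0.446 over them, under 0.05 in 3. These were DESeq2 (adjusted p = 0.0372, with 2.10% of all genes called higher and 4.36% lower), the edgeR test without a filter on low counts (0.0081, with 3.67% of all genes called higher and 4.19% lower) and the fit with the replicate number as a block (0.0259, with 7.05% of all genes called lower).

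Brca1, the ubiquitin ligase that acts upstream of Brca2 (ENSMUSG00000017146, chromosome 11 from 101488764 to 101551955, minus strand), had 34.7 and 29 CPM in the saline libraries and 23.5 and 25.6 CPM after treatment. Its groups did not overlap, but the difference did not pass the test (log2 fold change -0.38, standard error 0.18, 95% interval -0.81 to 0.06, adjusted p = 0.285). Bard1, the ring partner of Brca1, had a log2 fold change of -0.32 and Brip1, the helicase bound by Brca1, one of -0.23, each with both treated libraries below both saline libraries. Palb2, which joins Brca1 to Brca2, had -0.03 and overlapping groups. Under upper-quartile scaling, with offsets that take out each library's trend with gene length or without saline 1, 1 of the 5 mediators was higher.

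The recombination paralogues, which assist strand invasion, showed values on the other side, with 4 of 5 higher and a median log2 fold change of 0.20. Rad51c, the paralogue shared by both paralogue complexes (ENSMUSG00000007646, chromosome 11 from 87376645 to 87404954, minus strand), had 6.46 and 6.95 CPM in saline and 6.97 and 8.42 CPM after treatment. The nearest libraries of the groups, 6.95 and 6.97 CPM, were almost equal, and the difference did not pass the test (log2 fold change 0.20, standard error 0.28, 95% interval -0.49 to 0.89, adjusted p = 0.714). Rad51b had the largest difference of the 5, at 0.68 (standard error 0.42), on counts of 21 to 41 per library. Xrcc2 had 0.30, Rad51d 0.07 and Xrcc3 -0.07, and Rad51d and Xrcc3 had overlapping groups.

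End resection genes were lower in 4 of 4, with a median log2 fold change of -0.21, although upper-quartile scaling placed 2 of the 4 higher. Rad50 (ENSMUSG00000020380, chromosome 11 from 53649519 to 53707319, minus strand) had 62.7 and 63.0 CPM in saline and 43.1 and 49.0 CPM after treatment. The saline libraries were nearly equal and both treated libraries were lower. Its log2 fold change was -0.45 (standard error 0.14, 95% interval -0.80 to -0.10, unadjusted p = 0.0206, adjusted p = 0.178), and its adjusted p ranged from 0.0771 to 0.519 over 13 alternatives. Nbn, which brings ATM to the MRN complex with Rad50, had -0.04 and overlapping groups. The third protein of that complex is encoded by Mre11a, listed among the other pathway genes, which had 72.4 and 69.3 CPM in saline and 53.1 and 59.1 CPM after treatment (log2 fold change -0.34, standard error 0.14, adjusted p = 0.236). Rbbp8, whose product CtIP starts resection with the MRN complex, had -0.38 without overlap, and -0.12 with overlap after length offsets. The exonuclease gene Exo1 had -0.05 with overlap.

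The annealing and strand exchange genes were higher in 3 of 3, with a median log2 fold change of 0.20. Rad52, which anneals single strands, had 5.33 and 5.38 CPM in saline and 8.29 and 8.48 CPM after treatment. The libraries of each group were close together and the groups were apart, with a log2 fold change of 0.65 (standard error 0.27, 95% interval -0.03 to 1.32, adjusted p = 0.248). Rad54l, a motor that drives strand exchange, had 0.19 without overlap. Rad54b had 0.20 with saline libraries at 9.53 and 4.91 CPM, and 35.8% of its exonic bases belong also to Fsbp on the same strand, so its counts may be shared with that gene.

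The BLM complex, which separates joined chromosomes without crossing over, was divided, with 2 genes higher and 2 lower. Its helicase Blm had a log2 fold change of -0.33 (standard error 0.20) and its topoisomerase Top3a one of -0.51 (standard error 0.26), both with treated libraries below saline. With length offsets Blm was at -0.16 and its groups overlapped. Rmi2, a small accessory subunit, had 4.08 and 1.91 CPM in saline and 8.75 and 4.45 CPM after treatment. The libraries within each group differed almost as much as the groups, which lay apart by the gap from 4.08 to 4.45 CPM, and the log2 fold change of 1.14 had a standard error of 0.53 (adjusted p = 0.279). Leaving out 1 library moved it between 0.57 and 1.77. Rmi1, the other accessory subunit, had 0.11 and overlapping groups.

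In the Fanconi core complex, the ubiquitin ligase of crosslink repair, 7 of 8 genes were higher and Fancm was at 0.00, with a median log2 fold change of 0.25. Fancb, which joins Fancl in the catalytic part of the complex (ENSMUSG00000047757, chromosome X from 164980592 to 164997272, plus strand), had 4.83 and 3.07 CPM in saline and 8.87 and 7.16 CPM after treatment. Each treated library exceeded each saline library, on 45 to 154 counts per library. Its log2 fold change was 1.02 (standard error 0.36, 95% interval 0.14 to 1.90, unadjusted p = 0.0304, adjusted p = 0.200), with an adjusted p from 0.0628 to 0.587 over 13 alternatives. Without 1 library its log2 fold change lay between 0.71 and 1.37.

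Fanca, a core subunit gene often altered in Fanconi anaemia (ENSMUSG00000032815, chromosome 8 from 123268300 to 123318576, minus strand), had 16.2 and 12.3 CPM in saline and 17.5 and 15 CPM after treatment. The groups overlapped, and the log2 fold change was 0.19 (standard error 0.24, 95% interval -0.40 to 0.77, adjusted p = 0.678). Without saline 2 it was -0.01. Among the other core genes Fancc (0.54), Fancg (0.48) and Fancf (0.31) had higher treated libraries without overlap, while Fance and Fancl, the E3 subunit, were both at 0.05 with overlap. With length offsets 5 of the 8 were higher and 3 lower, with a median of 0.28.

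Both substrates of this ligase had a log2 fold change slightly below 0, by less than its standard error. Fancd2 (ENSMUSG00000034023, chromosome 6 from 113531682 to 113597017, plus strand) had 11.5 and 10.4 CPM in saline and 10 and 9.93 CPM after treatment. The treated libraries were below both saline libraries by a small margin, and the difference did not pass the test (log2 fold change -0.13, standard error 0.23, 95% interval -0.71 to 0.44, adjusted p = 0.766). Fanci, its partner, had -0.15 with overlapping groups. Without saline 1, 1 of these 2 genes was higher. With length offsets Fancd2 was at 0 and its groups overlapped.

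Of the nucleases that cut joined DNA and their scaffold Slx4, 3 of 4 were higher, with a median log2 fold change of 0.08. Mus81 had 12.1 and 8.11 CPM in saline and 17.3 and 14.9 CPM after treatment. The groups did not overlap and the log2 fold change was 0.67 (standard error 0.28, 95% interval -0.01 to 1.35, adjusted p = 0.239). Eme1, the partner of Mus81, stood at 0.08, Slx4 at 0.08 and the resolvase gene Gen1 at -0.07, all with overlapping groups. Without saline 2, 1 of the 4 genes was higher and 3 were lower.

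The damage kinase genes were lower in 3 of 4, with a median log2 fold change of -0.21, and 2 of 4 were lower under upper-quartile scaling, without saline 1 or without cmLumiOpto/PARPi 1. Atr, the kinase of stalled forks (ENSMUSG00000032409, chromosome 9 from 95857597 to 95951781, plus strand), had 27.3 and 31.8 CPM in saline and 19.3 and 21.5 CPM after treatment. Both treated libraries lay below both saline libraries, with a log2 fold change of -0.53 (standard error 0.18, 95% interval -0.98 to -0.08, unadjusted p = 0.0271, adjusted p = 0.193). Over 13 alternatives the adjusted p was 0.0806 to 0.811. With length offsets the log2 fold change was -0.12 (unadjusted p = 0.584) and the groups overlapped.

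Atm, the kinase of DNA breaks (ENSMUSG00000034218, chromosome 9 from 53439149 to 53536740, minus strand), had 25.6 and 25.2 CPM in saline and 22.4 and 15.9 CPM after treatment. The treated libraries were both lower but far apart, and the difference did not pass the test (log2 fold change -0.41, standard error 0.22, 95% interval -0.96 to 0.14, adjusted p = 0.335). Without cmLumiOpto/PARPi 2 it was -0.20, and without cmLumiOpto/PARPi 1 it was -0.68. Chek1, the kinase activated by ATR (ENSMUSG00000032113, chromosome 9 from 36708482 to 36727065, minus strand), had 37.8 and 34.5 CPM in saline and 32.0 and 39.7 CPM after treatment. The treated libraries lay on either side of both saline libraries (log2 fold change -0.02, standard error 0.18, 95% interval -0.45 to 0.42, adjusted p = 0.969). Chek2, the kinase activated by ATM (ENSMUSG00000029521, chromosome 5 from 110839979 to 110874145, plus strand), had 11.2 and 9.34 CPM in saline and 11.5 and 11.6 CPM after treatment. Its treated libraries were a little above saline (log2 fold change 0.16, standard error 0.24, 95% interval -0.43 to 0.75, adjusted p = 0.726), and with length offsets its log2 fold change was -0.03.

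**Figure D2:**
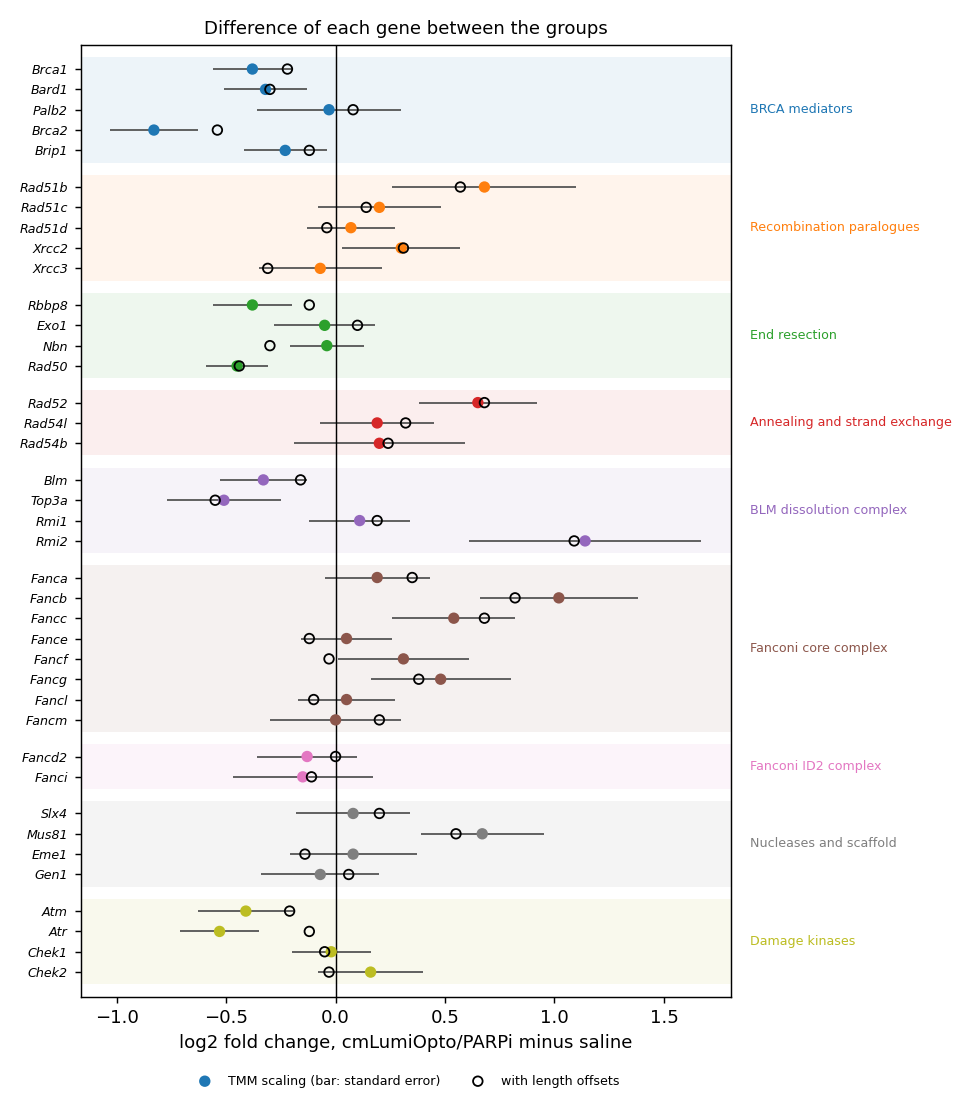
Log2 fold change of each of the 39 genes, cmLumiOpto/PARPi minus saline, with the standard error as a bar (filled points), and the value after length offsets (open circles), ordered by functional group. Brca2 at -0.83 is the lowest and Rmi2 at 1.14, with a standard error of 0.53, the highest, and the open circle of Atr lies at -0.12 beside its filled point at -0.53.

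Long genes were lower after cmLumiOpto/PARPi across the whole table, and many of the 39 genes are long. Over all 15167 genes the log2 fold change was related to gene length, the union of exons, with Spearman's rho of -0.37, and over the 39 genes rho was -0.48. These are correlations across genes, which share the same 4 libraries and are not independent replicates. In 5 groups of all genes of equal number, from the shortest to the longest, the median log2 fold change was 0.31, 0.15, 0.02, -0.09 and -0.27. The longest group began at 7273 bases and held 16 of the 39 genes, among them Brca1, Brca2, Atm and Atr. Of those 16, 12 (75%) were lower, beside 72.3% of all genes of that length. In the shortest group was Fancf alone.

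Offsets for length, fitted in each library by a loess curve of its log2 ratio to the gene mean, brought rho to 0.01 over all genes and -0.04 over the 39. With them 18 of the 39 genes were higher and 21 lower (43.7% and 56.3% of all genes), with a median of -0.03 beside -0.06 over all genes. The groups did not overlap in 10 higher genes (25.6%, against 20.3% of all genes) and 8 lower genes (20.5%, against 28.9%). At an unadjusted p under 0.05 there were 2 higher genes, Fancb and Fancc (5.13%, against 5.78% of all genes), and 2 lower, Brca2 and Rad50 (5.13%, against 8.40%). None of the 39 passed the adjusted threshold when the block was added to the offsets, where 2.91% of all genes were called higher and 5.35% lower. Brca2, with 13643 bases of exon, went from -0.83 to -0.54 and kept its treated libraries below saline (unadjusted p = 0.0492, adjusted p = 0.351). Rad50, with 5375 bases, was at -0.44 (unadjusted p = 0.0489), and Fancb, with 2956 bases, at 0.82 (unadjusted p = 0.0455). Fancc, which is long at 8359 bases and was nonetheless higher, went from 0.54 to 0.68 (unadjusted p = 0.0475). Brca1 went to -0.22 and its groups then overlapped. The medians were -0.22 for the BRCA mediators, -0.21 for resection, 0.14 for the recombination paralogues, 0.32 for annealing and strand exchange, 0.28 for the Fanconi core complex and 0.13 for the nucleases. They were nearer to 0 for the damage kinases (-0.08), the ID2 pair Fancd2 and Fanci (-0.05) and the BLM complex (0.01).

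**Figure D3:**
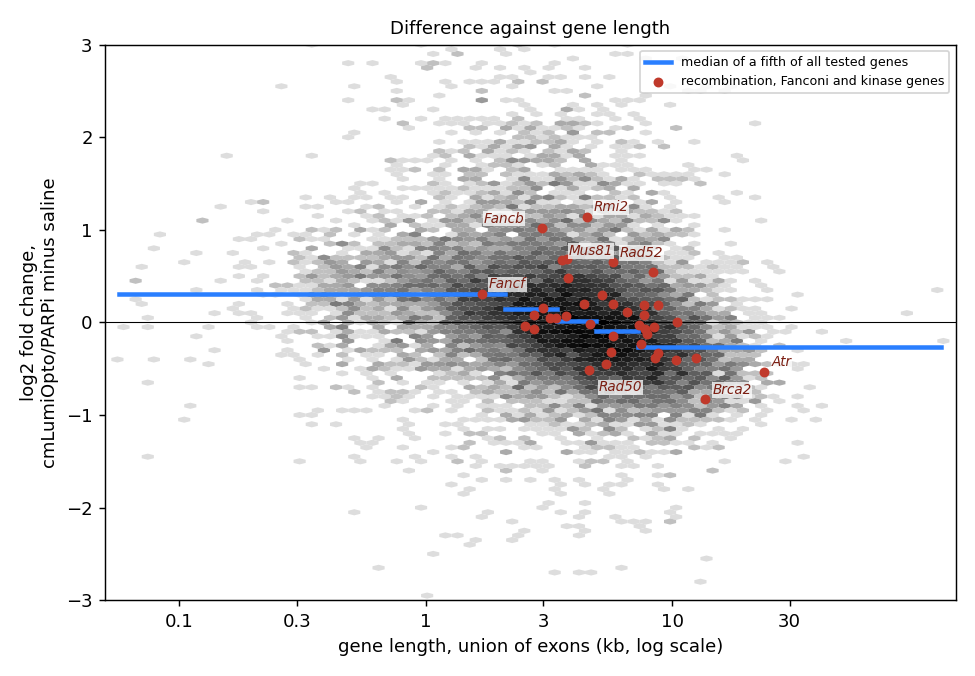
Log2 fold change against gene length in kilobases of exon (log scale) for all tested genes (grey, darker where genes are denser) and the 39 genes (red), with the median of each of 5 equal groups of genes by length as a blue line. The blue lines step down from 0.31 to -0.27, Atr and Brca2 lie at the long and lower end, and 82 genes beyond 3 on either side of 0 are outside the axis.

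Counts of several of the 39 genes may hold reads of neighbours, since whether counting used the strand is not given in the sources used here. In GENCODE M21, 19 of the 39 share exonic bases with another gene, and 7 share over 10% with 1 other gene. These 7 are Rad54b and 6 genes with a partner on the opposite strand, led by Fancc with Gm16133 (16.4%), Fanci with Polg (16%), Rad54l with Lrrc41 (15.4%) and Fancf with Gas2 (15%). Brca2 shared 0.301% with an antisense gene, and Rad50 and Fancb shared none. Atr shared 3.07% with 1700065D16Rik and 1.96% with Gm16794, both antisense, and 0.753% with the same-strand snRNA gene Gm24004.

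Of 53 other pathway genes in the table, 52 were tested and the meiotic recombinase gene Dmc1 had 0 counts in all 4 libraries. Of the 52, 24 were higher and 28 lower (median log2 fold change -0.05), none passed the adjusted threshold, and 6 higher (11.5%, against 9.21% of all genes) and 4 lower (7.69%, against 12.0%) had an unadjusted p under 0.05. Among the higher genes Cenpx, a histone-fold partner of Fancm (0.88, adjusted p = 0.138), Sem1, the small cofactor bound by Brca2 (0.53), Rpa3, the smallest subunit of the single-strand binding complex (0.62), and the nuclease-helicase gene Dna2 (0.67) had the smallest p. Among the lower genes these were Tonsl, which acts with Mms22l at damaged forks (-0.69), the helicase gene Mcm9 (-0.67), Clspn, the adaptor between ATR and CHEK1 (-0.64), and Maged1 (-0.50). With the replicate number as a block, Cenpx (adjusted p = 0.0235) and Sem1 (adjusted p = 0.0345) passed, 2 genes higher and 0 lower, with 4.96% of all genes called higher. With length offsets added to the block neither passed (Cenpx adjusted p = 0.114, Sem1 adjusted p = 0.0823). With length offsets alone the log2 fold change of Cenpx, a gene of 1077 bases, was 0.49 and that of Rpa3, of 1136 bases, was 0.23 with overlapping groups. Cenpx ranged from an adjusted p of 0.0061 to 0.415 over 13 alternatives and Sem1 from 0.0291 to 0.462.

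Fibroblast, airway, alveolar, macrophage and B cell markers stood apart between the groups in their summed levels, while the summed levels of markers of cycling cells overlapped. The part of either in the levels of the 39 genes was not tested. Recombination genes are expressed mostly in dividing cells, and the summed level of 24 markers of proliferation was 2390 and 2480 CPM in saline and 1870 and 2410 CPM after treatment. Of these markers 10 were higher and 14 lower, with 4 higher and 8 lower without overlap, beside 27.4% and 27.8% of all genes. Mki67, the antigen of cycling cells, had 281 and 302 CPM in saline and 166 and 206 CPM after treatment (log2 fold change -0.65, adjusted p = 0.143), and Foxm1, a factor of the late cell cycle, had -0.66. The replication clamp gene Pcna was on the other side, at 127 and 153 CPM in saline and 158 and 177 CPM after treatment.

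The summed level of 6 fibroblast markers was 5090 and 3500 CPM in saline and 1630 and 1840 CPM after treatment. Without overlap 6 of 6 were lower, while 27.4% of all genes were higher and 27.8% lower in this way. The sum of 8 airway markers was 1160 and 87.9 CPM in saline and 5750 and 3220 CPM after treatment. All 8 were higher without overlap. For 8 alveolar type 2 markers the sum was 1720 and 464 CPM against 8330 and 2970 CPM. Without overlap 7 of them were higher and 1, Abca3, was lower. Sftpc alone made up 1020 and 176 CPM of the saline sums and 6150 and 2090 CPM of the treated sums. The 6 alveolar type 1 markers summed to 304 and 125 CPM in saline and 905 and 455 CPM after treatment, with 5 higher without overlap. The 12 markers of tumour or mammary epithelium summed to 3020 and 3400 CPM in saline and 2710 and 3860 CPM after treatment, and the groups overlapped. The 7 macrophage markers summed to 1300 and 1500 CPM in saline and 1180 and 1030 CPM after treatment. Of these, 4 were higher and 3 lower, with Cd68 higher and Mrc1 lower without overlap. Markers of macrophages, neutrophils, endothelium, T and NK cells, and cardiac muscle of the pulmonary vein had 0 to 2 members without overlap in either direction. Of 5 B cell markers, 3 were higher without overlap, at sums of 4.95 and 2.11 CPM in saline and 11.3 and 8.12 CPM after treatment. The B cell gene Ms4a1 and the atrial gene Myl7 were at 0 in 1 or more libraries.

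**Figure D4:**
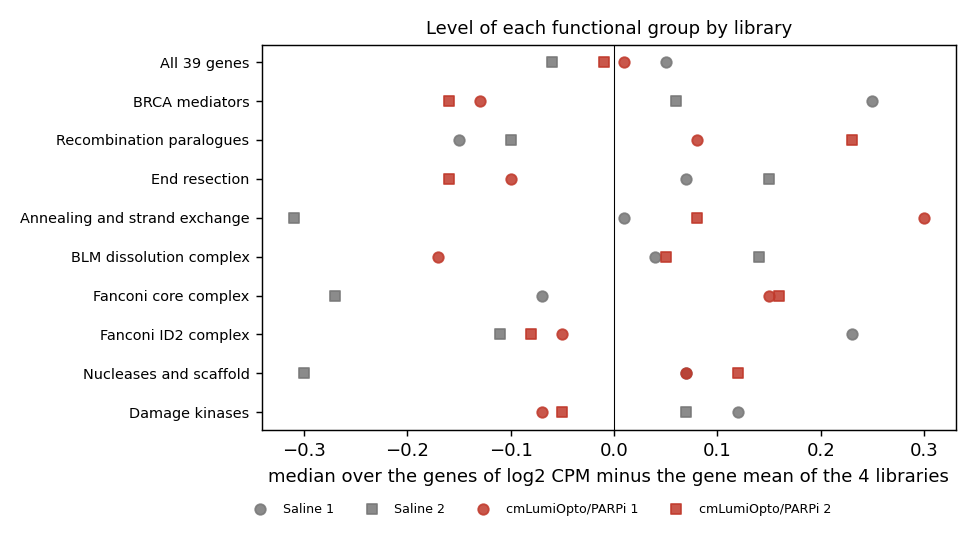
For all 39 genes and each functional group, the median over its genes of log2 CPM minus the mean of the 4 libraries, in each library (grey for saline, red for cmLumiOpto/PARPi, circles for library 1, squares for library 2). The red points of the BRCA mediators lie at -0.13 and -0.16 and the grey points at 0.25 and 0.06, the order is the opposite for the Fanconi core complex, and all 39 genes together lie between -0.06 and 0.05.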

How the data were processed

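RNA was sequenced from 4 libraries of mouse lung with 4T1 metastases, 2 per group. Reads were mapped with HISAT2, and the deposited table holds the authors' raw counts per gene, not normalized, with gene length as deposited. The methods name GRCm38 and the submitters' processing notes mm39, and 2.76% of 52073 genes matched by identifier lay at the same position in GENCODE M21, so coordinates are from GENCODE M21 (GRCm38) and not from the table. Groups were taken from the sample titles.

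From the counts, edgeR 4.0.16 (R 4.3.3) was run on the whole table with TMM scaling, filterByExpr (minimum count 10), glmQLFit and glmQLFTest, and Benjamini-Hochberg adjustment over all tested genes at 0.05. Intervals used a median of 5.8 degrees of freedom. With 2 libraries against 2, an exact permutation test cannot give a two-sided p below 0.333. Alternatives were DESeq2 1.42.0, RLE and upper-quartile scaling, other filters, the other legacy option of glmQLFit, the replicate number as a block, length offsets (loess span 0.5) and leaving out each library. The fits were also run on simulated counts without an effect shared by same-numbered libraries, and no result given here rests on that run. Totals of 15263375 to 16755228 counts set the precision, and the spread between libraries of 1 group exceeded counting error, by a chi-square per degree of freedom of 25.2 in saline and 45.4 after treatment.

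The genes, the lists and the tests were chosen with earlier results of these data known. Library values with statistics were given for genes at an unadjusted p under 0.05 and for Brca1, Brca2, Rad51c, Fanca, Fancd2, Atm, Atr, Chek1 and Chek2, and other pathway genes were named by the 4 smallest p in each direction. Rad52, Rmi2, Mus81, Pcna, Mki67, Foxm1 and Mre11a, and the overlapping neighbours, were named after their values were seen. Some genes of the lists are counted but not reported here by name.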

Additional observations from a re-analysis of the deposited data

How the results depend on the processing

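Of the 39 genes, 0 passed the adjusted threshold in either direction, and this held under upper-quartile and RLE scaling, the filter at 50 counts in total, the other legacy option, both length corrections and each left-out library. With DESeq2, without a filter and with the replicate block, 1 gene, Brca2, was lower. Over all genes, 0 were called in the reported fit, 319 higher and 662 lower with DESeq2, and 934 higher and 1066 lower without a filter, and the cause was not tested. Genes of the 39 at an unadjusted p under 0.05 were 1 higher and 3 lower as reported, beside 9.21% and 12.0% of all genes. With RLE scaling they were 2 higher and 3 lower (all genes 9.36% and 11.6%). Upper-quartile scaling gave 3 higher and 1 lower (all genes 13.8% and 7.82%). Without a filter there were 3 higher and 4 lower (all genes 8.70% and 8.86%). Length offsets gave 2 higher and 2 lower (all genes 5.78% and 8.40%). The median log2 fold change was 0.15 with upper-quartile scaling and -0.03 with length offsets. Chek1 changed sign to 0.09 with upper-quartile scaling and Chek2 to -0.03 with length offsets.

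The labels give both groups the replicate numbers 1 and 2 and name nothing that same-numbered libraries share. Their deviations from the group means were positively related, with Spearman's rho of 0.30 over all tested genes and 0.37 over the 39, which with 2 pairs is a hint from the data and not the design, so the pairing was not used in the reported fit. With the replicate block, 752 genes were called higher and 1070 lower, 1 of the 39 lower (Brca2) and 4 of the 39 higher and 4 lower at an unadjusted p under 0.05 (10.3% each, against 14.6% and 15.9% of all genes). With the replicate block and length offsets these were 441 and 811 genes, 0 of the 39 called, 5 higher and 3 lower at an unadjusted p under 0.05 (12.8% and 7.69%, against 9.91% and 16.8%), a median of -0.03 and Chek2 at -0.03.

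Leaving out 1 library, with the lone sample assumed to vary like the other group, gave 0 to 3 genes higher and 1 to 4 lower at an unadjusted p under 0.05, 0 to 17 of all genes called higher and 0 to 14 lower, 13 to 19 higher and 13 to 17 lower genes without overlap, and a median of -0.04 to 0.12. In these 4 fits the share of the 39 that was higher without overlap was 33.3% to 48.7%, beside 36.7% to 42.2% of all genes. The share lower without overlap was 33.3% to 43.6%, beside 36.6% to 39.4% of all genes. Chek1 ranged from -0.20 to 0.13, with 0.04 without saline 1, and Fanca from -0.01 to 0.38. The depth limits genes of low count, such as Rad51b at 21 to 41 counts per library.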
